A study of Homo sapiens with 4 samples.

Results

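Genes of the endoplasmic reticulum (ER) that fold proteins or mark them for disposal were followed in OCI-Ly3, an established human cell line grown from a diffuse large B-cell lymphoma and classed as activated B-cell type. The members were HSP90B1, HSPA5, CALR and SEL1L, chosen by name after their ratios on these arrays had been seen. They were matched by symbol in the platform's probe annotation, where HSP90B1 stands under its current name. All 4 genes were found, with 7 probes among 15246 on the platform, and every member probe had a value on all 4 arrays. The comparison set was the 3589 genes with a value on all 4 arrays.

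Each of the 4 two-colour arrays set cells given doxycycline at 20 ng/ml, to induce a short hairpin RNA against IKKa, against cells of the same line without doxycycline. Doxycycline was given for 3 days with the IKKb inhibitor MLN120b present for 24 h, for 2 days with the inhibitor present for 3 h, or for 3 or 2 days with no inhibitor. Where the inhibitor was used, both channels of the array had it, at 12.5 uM. Induced cells were labelled with Cy5 and uninduced cells with Cy3 on every array, so a dye effect and the effect of doxycycline itself cannot be told apart from that of the hairpin.

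The values are log2 ratios of induced over uninduced cells, which is the likely direction of the deposited ratios. Dye labels and the sign of CHUK, the gene of IKKa, are the basis for it. Were the ratio the other way round, every value below 0 here would lie above 0. CHUK stood at -1.01 (3 days) and -1.30 (2 days) with inhibitor, against -0.87 (3 days) and -0.59 (2 days) without. The arrays held values for 11722 to 14375 probes, and scanner signals were not used here, so signal over background is unknown. A ratio holds no level, so the labelled cell type could not be checked against its markers. Of 8 B-cell markers 7 were measured, with median ratios of -0.08 and -0.11 with inhibitor and -0.08 and -0.02 without (3 and 2 days). Of these markers 2 lay below 0 on all 4 arrays, and of the 9 measured T-cell markers none did, beside 25.8% of all 3589 genes. The RNA was of whole cultures, so fewer cells with a transcript and less of it per cell cannot be told apart.

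The ER lumen folds secreted and membrane proteins with chaperones that are held there by a KDEL tail and its receptors. HSPA5 (BiP) is the Hsp70 of the lumen and keeps the sensors of the unfolded protein response quiet, HSP90B1 (GRP94) is the Hsp90 of the lumen and folds Toll-like receptors and integrins, and CALR (calreticulin) is a calcium-binding lectin that holds glycoproteins while they fold. Proteins that fail are sent out by ER-associated degradation (ERAD), in which SEL1L joins substrate recognition to the ubiquitin ligase SYVN1 (HRD1). B cells expand this machinery when they turn into antibody-secreting plasma cells.

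The chaperone HSP90B1 and the ERAD adaptor SEL1L had ratios far below 0 on all 4 arrays, while CALR and HSPA5 lay closer to 0 on the same side. These ratios led to the choice of the genes, so they are given as a description, without a test. All 4 members were below 0 on every array, as were 25.8% of the 3589 genes. HSP90B1 and SEL1L were also lower by more than 1.5-fold on each of the 4 arrays, which held for 0.669% of genes. CALR and HSPA5 passed that size only at 3 days without inhibitor.

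HSP90B1 had log2 ratios of -1.82 at 3 days and -1.22 at 2 days with inhibitor, against -1.74 at 3 days and -0.60 at 2 days without. On 3 of these arrays it was at least 2.33-fold lower in induced cells, and at 2 days without inhibitor 1.52-fold lower. Ratios of all genes were narrowest on that last array. With arrays scaled to equal spread HSP90B1 had -0.94 there and -1.66 at 3 days without inhibitor, against -1.19 and -1.24 with inhibitor (3 and 2 days). Means over the time points were -1.52 ± 0.43 with inhibitor and -1.17 ± 0.80 without (SD, n = 2 each). Without inhibitor the change with time, 3 minus 2 days, was -1.13, rank 2 from the lowest among 3589 genes. With inhibitor it was -0.60, at rank 90. One of its probes gave -2.03 and -1.10 with inhibitor (3 and 2 days), against -1.90 and -0.59 without, and the other -1.62 and -1.34, against -1.58 and -0.62. Both put the arrays in the same order.

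SEL1L, measured by 1 probe, was among the lowest genes on every array. Its log2 ratios were -1.95 at 3 days and -1.40 at 2 days with inhibitor, against -1.39 at 3 days and -0.95 at 2 days without. Counted from the lowest, it stood at rank 11 and rank 9 with inhibitor (3 and 2 days), against rank 9 and rank 8 without, out of 3589 genes. Such ranks do not depend on how an array is centred or scaled. HSP90B1 had ranks of 14 and 16 with inhibitor, against 4 and 49 without, in the same order of days. The SEL1L means were -1.67 ± 0.39 with inhibitor and -1.17 ± 0.31 without (SD, n = 2 each), 3.19-fold and 2.25-fold below the uninduced cells. On the deposited scale SEL1L was lower with inhibitor than without on both days (difference -0.56 at 3 days and -0.45 at 2 days). For HSP90B1 the same differences were -0.09 at 3 days and -0.61 at 2 days. With arrays scaled to equal spread SEL1L was no longer lower with inhibitor, at -1.27 and -1.43, against -1.33 and -1.49 without (3 and 2 days). HSP90B1 then had -1.19 and -1.24 with inhibitor, against -1.66 and -0.94 without.

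CALR, with 3 probes, had log2 ratios of -0.58 at 3 days and -0.31 at 2 days with inhibitor, against -0.65 at 3 days and -0.24 at 2 days without. Its means were -0.44 ± 0.19 with inhibitor and -0.45 ± 0.29 without (SD, n = 2 each), 1.36-fold lower than in uninduced cells in both groups. All 3 probes were below 0 on every array and spanned 0.04 to 0.35 log2 units within an array, a width that at 2 days with inhibitor ran from -0.50 to -0.15. HSPA5 rested on 1 probe and had ratios of -0.44 at 3 days and -0.09 at 2 days with inhibitor, against -0.62 at 3 days and -0.25 at 2 days without. Of the 4 genes only HSPA5 was closer to 0 with inhibitor on both days on the deposited scale, by 0.18 at 3 days and 0.16 at 2 days. With arrays scaled to equal spread SEL1L was too, and so was CALR, at -0.38 and -0.32 with inhibitor, against -0.62 and -0.38 without. The HSPA5 means of -0.27 ± 0.25 with and -0.43 ± 0.26 without inhibitor (SD, n = 2 each) overlapped in range. At 2 days with inhibitor 37.9% of genes had a lower ratio than HSPA5, and at 3 days without inhibitor 4.35% did. On both arrays with inhibitor the order from the lowest was SEL1L, HSP90B1, CALR and HSPA5. There SEL1L and HSP90B1 were 0.12 and 0.18 log2 units apart (3 and 2 days), less than the 0.42 and 0.23 between the probes of HSP90B1. At 3 days without inhibitor HSP90B1 was the lower of the pair by 0.35, and at 2 days SEL1L was, by 0.35, both more than the probe gaps of 0.32 and 0.03. CALR and HSPA5 differed by less than the CALR probes on 3 of the 4 arrays, the exception being 3 days with inhibitor (0.13 apart, probes within 0.04).

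**Figure D1:**
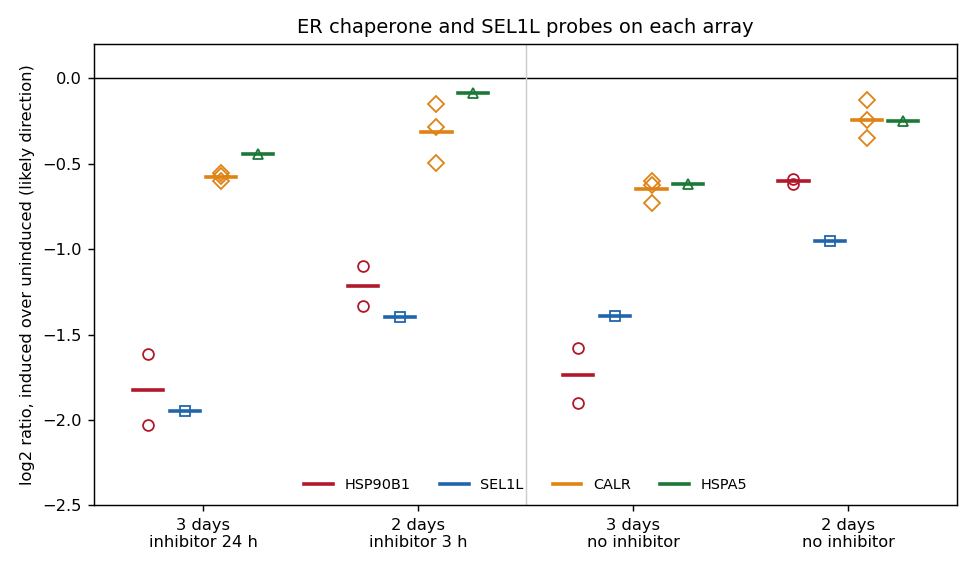
Log2 ratio of induced over uninduced cells (vertical axis) on the 4 arrays (horizontal axis) for the 7 member probes. Open symbols are probes and bars are gene means. HSP90B1 and SEL1L lie below CALR and HSPA5 on every array, and HSP90B1 at 2 days without inhibitor (-0.60) is the value closest to 0 for that gene.

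The time comparison asked whether 3 days of induction gave lower ratios than 2 days. In both pairs of arrays all 4 members had lower ratios at 3 days, as did 43.2% of the 3589 genes. Being below 0 on all 4 arrays as well as lower at 3 days in both pairs held for 17.4%. The day difference, 3 minus 2 days, was -0.60 with inhibitor and -1.13 without for HSP90B1, and -0.55 and -0.44 for SEL1L. For CALR it was -0.26 with inhibitor and -0.41 without, and for HSPA5 -0.35 and -0.37. The medians over all genes were -0.04 with inhibitor and -0.07 without. With inhibitor the day pair also differs in inhibitor time (24 h against 3 h), so hairpin time and inhibitor time cannot be told apart there.

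Ratios of all genes were wider at 3 days, with a median absolute deviation of 0.259 at 3 days and 0.166 at 2 days with inhibitor, against 0.177 at 3 days and 0.109 at 2 days without. When arrays were scaled to equal spread the day difference of SEL1L turned to 0.15 with inhibitor and to 0.15 without, and that of HSP90B1 to 0.05 with inhibitor. HSP90B1 without inhibitor, CALR and HSPA5 kept a negative day difference under this scaling. HSP90B1 without inhibitor then had scaled ratios of -1.66 at 3 days and -0.94 at 2 days. A lower ratio at 3 days for SEL1L, and for HSP90B1 with inhibitor, therefore holds on the deposited scale and not on the scaled one. The limma fit of the day effect over all genes, with inhibitor as a block, called 0 of 3589 genes (0.0%) at an adjusted p under 0.05, with 727 at an unadjusted p under 0.05.

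**Figure D2:**
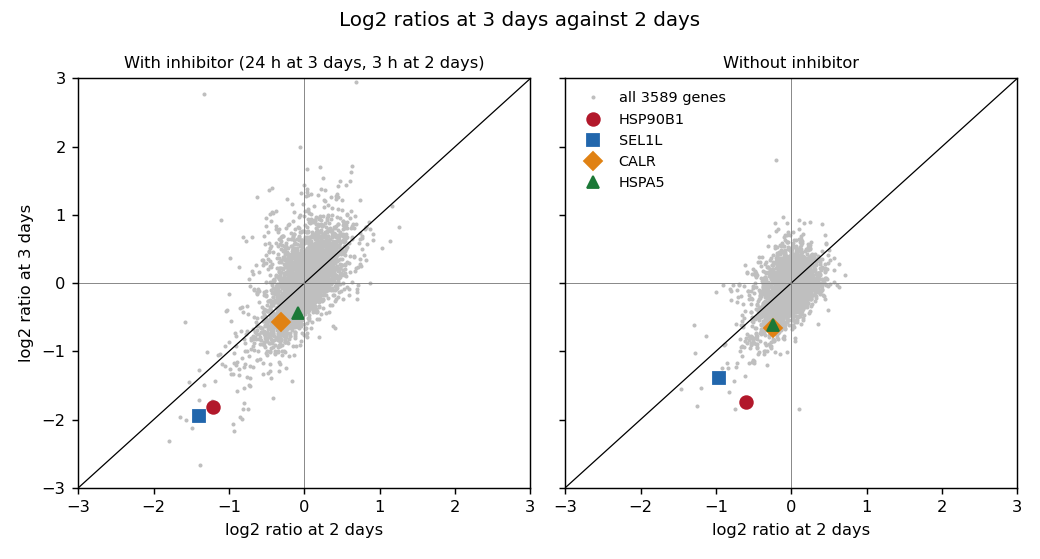
Log2 ratio at 3 days (vertical axis) against 2 days (horizontal axis) for 3589 genes (grey dots) and the members (coloured symbols), with inhibitor on the left and without on the right. All 4 members lie below the diagonal of equal ratios in both panels, and HSP90B1 without inhibitor lies farthest below it among them (-1.13).

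**Figure D3:**
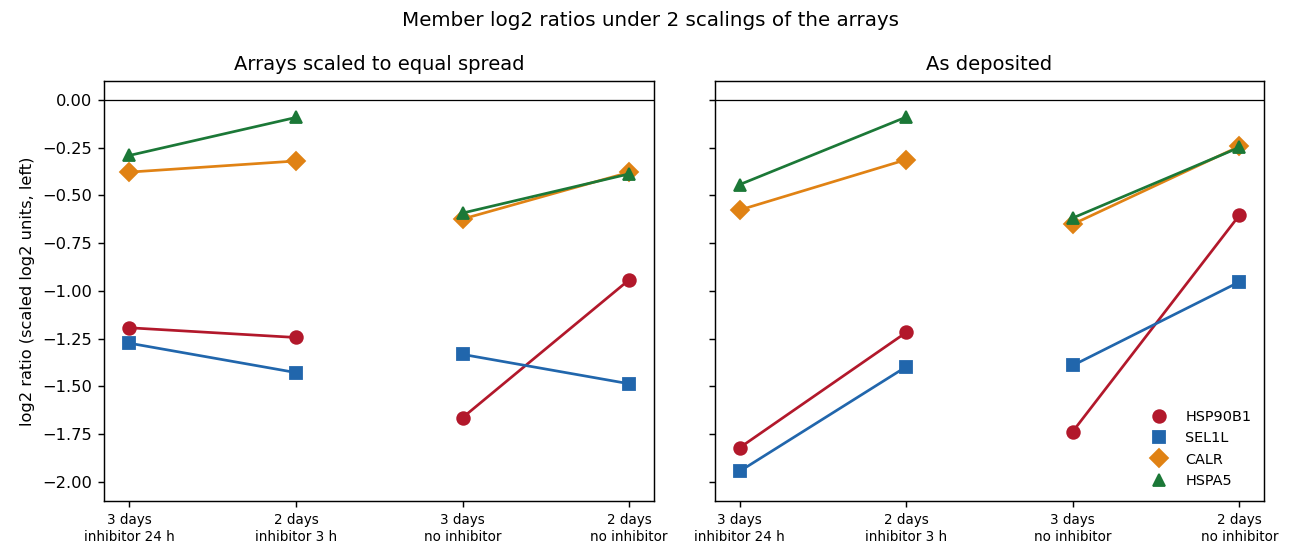
Member log2 ratios (vertical axis) on the 4 arrays (horizontal axis), with arrays scaled to equal median absolute deviation on the left and as deposited on the right. Lines join the days of one inhibitor status. After scaling SEL1L no longer has the lower ratio at 3 days, while HSP90B1 without inhibitor still does (-1.66 against -0.94).

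The promoters of the members are shown because chaperone genes share an ER stress response element (ERSE), the site through which ATF6 and XBP1 raise them when unfolded proteins accumulate. The exact letters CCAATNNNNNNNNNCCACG were searched on both strands in the 250 bases before each listed start of transcription, in RefSeq promoters of build GRCh38.p14, where all 4 members matched by symbol. The element occurred before 25 of 27305 genes (0.0916%). HSP90B1 holds 2 matches, from 194 to 176 and from 89 to 71 bases before the start, CALR 1 from 225 to 207 and HSPA5 1 from 66 to 48. The second HSP90B1 match and the CALR match lie on the opposite strand. No such letters are in the SEL1L window. Capitals mark the ERSE, and each run ends at the base before the start. The runs are chr12:103930160-103930409 (plus strand), chr9:125241344-125241593 (minus), chr19:12938359-12938608 (plus) and chr14:81533854-81534103 (minus), in the order printed.
HSP90B1: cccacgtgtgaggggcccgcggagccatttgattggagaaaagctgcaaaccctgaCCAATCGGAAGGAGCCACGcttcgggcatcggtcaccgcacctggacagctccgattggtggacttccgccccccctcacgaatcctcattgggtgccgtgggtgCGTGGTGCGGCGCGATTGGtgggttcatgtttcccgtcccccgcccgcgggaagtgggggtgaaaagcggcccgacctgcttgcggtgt
HSPA5: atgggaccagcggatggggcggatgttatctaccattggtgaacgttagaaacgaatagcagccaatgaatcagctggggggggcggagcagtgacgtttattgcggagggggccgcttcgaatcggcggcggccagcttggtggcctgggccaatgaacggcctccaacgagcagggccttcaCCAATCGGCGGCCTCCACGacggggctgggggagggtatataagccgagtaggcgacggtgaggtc
CALR: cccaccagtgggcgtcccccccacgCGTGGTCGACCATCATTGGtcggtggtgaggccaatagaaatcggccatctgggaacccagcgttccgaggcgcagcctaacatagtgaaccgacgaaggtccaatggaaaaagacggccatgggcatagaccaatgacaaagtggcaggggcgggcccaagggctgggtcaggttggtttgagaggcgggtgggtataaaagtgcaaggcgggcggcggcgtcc
SEL1L: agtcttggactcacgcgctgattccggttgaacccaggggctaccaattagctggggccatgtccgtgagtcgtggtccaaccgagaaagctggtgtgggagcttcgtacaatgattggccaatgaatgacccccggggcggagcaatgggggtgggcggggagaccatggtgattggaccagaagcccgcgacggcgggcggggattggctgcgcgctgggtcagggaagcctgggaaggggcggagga

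Shorter parts of the element were common. The box CCAAT, which the ERSE contains, was found on either strand before all 4 members and before 37.0% of genes, and its other end, CCACG, before all 4 and 37.5%. Among measured genes with a listed promoter these shares were 43.4% and 50.8%. Neither the related ERSE-II, ATTGGNCCACG (0.0659% of genes), nor the XBP1 element TGACGTGG (0.78%) was found in the 4 windows. Among the 2939 measured genes with a listed promoter, 7 held an exact ERSE (0.238%). The 4 that are not members are named because the motif picked them. They were XBP1, the transcription factor made active by splicing in this response, CANX (calnexin), the membrane-bound partner of calreticulin, CRELD2, a secreted ER stress protein, and ALG12, a mannosyltransferase of N-glycan assembly. CRELD2 and ALG12 are read from the same stretch in opposite directions and share the match.

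The ERSE genes outside the members lay on both sides of 0. XBP1 had -0.39 at 3 days and -0.10 at 2 days with inhibitor, against -0.40 and -0.25 without. CRELD2 was above 0 on all 4 arrays, at 0.18 and 0.67 with inhibitor, against 0.39 and 0.23 without. CANX had -0.14 and 0.15 with inhibitor, against -0.35 and -0.16 without, and ALG12 had -0.05 and -0.18, against 0.22 and 0.18. Their medians were -0.09 and 0.03 with inhibitor, against -0.07 and 0.01 without, beside -0.03 and -0.02, against -0.06 and -0.01, over all genes. Of these 4 genes 1, XBP1, was below 0 on all arrays, beside 25.8% of all genes.

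Other genes of the pathway were taken from 6 lists of ER genes that left out the members. Of 155 listed genes 69 had a probe and 61 a value on all 4 arrays. Their pooled medians were -0.10 at 3 days and -0.03 at 2 days with inhibitor, against -0.14 and -0.04 without. Of the 61 genes 20 were below 0 on all 4 arrays, beside 25.8% of all genes. In both pairs 39 of the 61 had lower ratios at 3 days, beside 43.2%. None of them was lower by more than 1.5-fold on all 4 arrays, beside 0.669% of all genes. HSP90B1 and SEL1L passed that size, but these ratios led to their choice. With inhibitor 1 of the 61 fell and none rose, beside 4.57% of all genes called, 3.04% lower and 1.53% higher (limma, adjusted p under 0.05). With arrays paired by day as a block, 10 of the 61 fell and 4 rose with inhibitor, beside 25.3% of all genes called, 14.1% lower and 11.2% higher. Without inhibitor this fit called none of the 61 and 1.56% of all genes. Those that fell with inhibitor were MARCHF6, AUP1, CTH, DNAJC10, KDELR1, LMAN1, PDIA4, RPN1, SRP72 and TRAM1, and those that rose BBC3, DDIT3, MOGS and PDIA5. Calls in the lists that follow are of the fit without this block. Without inhibitor limma called 0 of 3589 genes (0.0%), with 400 at an unadjusted p under 0.05, and 0 for the difference with minus without inhibitor, with 173.

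The gene that fell in the fit without the block was MARCHF6, an ER membrane ubiquitin ligase of ERAD, measured by 1 probe. It had -1.23 at 3 days and -0.69 at 2 days with inhibitor, against -0.37 and -0.18 without. Its mean with inhibitor was -0.96 ± 0.39 (SD, n = 2), 1.94-fold lower than in uninduced cells (limma adjusted p = 0.0255), and its mean without was -0.27 ± 0.14 (0.568). The difference of these means did not pass (-0.69, SE 0.22, adjusted p = 0.989). The call ended when either array without inhibitor was left out, which keeps this mean and takes the spread from the arrays with inhibitor alone. Of the other 6 measured ERAD genes none passed. AUP1, which recruits the ERAD ubiquitin-conjugating enzyme, averaged -0.40 with and -0.17 without inhibitor, and EDEM3, a mannosidase that marks glycoproteins for disposal, -0.37 and 0.03. UBE2J1, a conjugating enzyme of ERAD, had -0.04 in both groups. The lectin OS9, which hands substrates to SEL1L, had 0.05 with and -0.04 without inhibitor, and the shuttle factor RAD23B 0.06 and 0.10. SYVN1, the ligase that SEL1L serves, had -0.02 at 3 days and 0.03 at 2 days with inhibitor, against -0.08 and 0.09 without, and is named for that tie after its values were seen.

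Of 11 measured chaperones and folding enzymes besides the members none passed in any of the 4 fits. Below 0 on all 4 arrays were 3 of the 11, beside 25.8% of all genes. DNAJC10, a reductase that works with HSPA5 in ERAD, had the lowest mean ratios, -0.57 ± 0.07 with inhibitor and -0.41 ± 0.38 without (SD, n = 2 each; limma adjusted p = 0.071 and 0.384). PDIA4, a disulfide isomerase, differed by day, with -0.75 at 3 days and -0.12 at 2 days with inhibitor, against -0.67 and 0.01 without. PPIB, a prolyl isomerase, averaged -0.26 with and -0.33 without inhibitor, and MANF, an ER stress protein that binds HSPA5, -0.31 and -0.25. CRELD2 (0.43 and 0.31) and PDIA5 (0.33 and 0.04) had the highest means.

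None of 15 measured sensors and effectors of the unfolded protein response passed. Below 0 on all 4 arrays were 6 of the 15, beside 25.8% of all genes. CTH, of transsulfuration, had the lowest means, -0.68 with and -0.53 without inhibitor (limma adjusted p = 0.0556 and 0.32). WARS1, a tRNA synthetase, had -0.28 and -0.35, XBP1 -0.25 and -0.33, and ATF4, the transcription factor of the amino acid stress arm, -0.24 and -0.30. BBC3, which encodes the pro-apoptotic protein PUMA, was highest with 0.68 and 0.23, and MBTPS1, the protease that releases ATF6, had 0.17 and 0.26.

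Among 15 measured genes of ER entry and N-glycosylation none passed. SRP72, of the signal recognition particle, averaged -0.64 with and -0.48 without inhibitor, the translocon protein TRAM1 -0.48 and -0.31, RPN1 of the oligosaccharyltransferase -0.39 and -0.37, and SSR4 of the translocon -0.17 and -0.07. MOGS, the first glucosidase of the N-glycan, stood at 0.38 and 0.25, and SRP14 at 0.12 and 0.26. Genes of ER export and KDEL retrieval had the lowest list medians of the 6 at 3 days, -0.39 with and -0.31 without inhibitor. Of these 8 genes 4 were below 0 on all arrays, beside 25.8% of all genes. KDELR1, the receptor that returns KDEL proteins such as the 3 chaperones, had the lowest mean over the 4 arrays of all 61 genes. Its ratios were -1.40 at 3 days and -0.44 at 2 days with inhibitor, against -0.60 and -0.73 without, from 1 probe (mean with inhibitor -0.92 ± 0.68, limma adjusted p = 0.0555; without -0.66 ± 0.10, 0.334). LMAN1, a cargo receptor, averaged -0.55 and -0.67, COPE of the COPI coat -0.33 and -0.38, and SEC23B of the COPII coat -0.29 and -0.17. SEC31A had 0.04 and 0.14, and MCFD2, the partner of LMAN1, 0.17 and 0.30. None of the 8 passed.

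The 5 measured genes of ER calcium handling had ratios near 0 and none passed. STIM1, the calcium sensor of the ER membrane, averaged -0.18 with and -0.09 without inhibitor, TMBIM6 -0.17 and -0.04, and the calcium release channels ITPR3 and ITPR2 -0.14 and 0.00 with inhibitor. The calcium pump gene ATP2A3 had 0.10 with and -0.28 without.

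Clients of HSP90B1 and chaperones outside the ER were set beside the members. Of 13 measured clients 1 fell with inhibitor and none rose, beside 3.04% and 1.53% of all genes. Of the 13 clients 3 were below 0 on all arrays, beside 25.8% of all genes. ITGA4, the alpha 4 integrin, fell to a mean of -0.74 ± 0.09 with inhibitor (SD, n = 2; limma adjusted p = 0.0345), against -0.18 ± 0.28 without (0.675), from 1 probe. Its ratios were -0.80 at 3 days and -0.68 at 2 days with inhibitor, against 0.02 and -0.38 without, and the difference of the means did not pass (-0.56, adjusted p = 0.989). The call ended when arrays were centred on their medians, when they were scaled to equal spread and without either array lacking inhibitor. The Toll-like receptor gene TLR7 had 0.50 with and 0.09 without inhibitor. Of 12 measured cytosolic and mitochondrial chaperones none passed, and 10 had lower ratios at 3 days in both pairs, beside 43.2% of all genes. HSPA9, the mitochondrial Hsp70, averaged -0.67 with and -0.41 without inhibitor, and HSPA1A, an inducible cytosolic Hsp70, -0.45 and -0.47. Their list median was -0.38 at 3 days and -0.05 at 2 days with inhibitor, against -0.31 and 0.07 without. Plasma cell genes had medians of 0.12 and -0.02 with inhibitor, against -0.05 and 0.00 without. Beside 3.04% of all genes called lower with inhibitor, 1 of 10 fell. This was IRF4, a transcription factor of plasma cell differentiation, with -0.70 ± 0.23 with inhibitor (limma adjusted p = 0.0443) and -0.47 ± 0.27 without (SD, n = 2 each; 0.325), a call that ended after median centring and without either array lacking inhibitor. SLAMF7, a surface receptor of plasma cells, averaged -0.34 and -0.48 and did not pass.

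**Figure D4:**
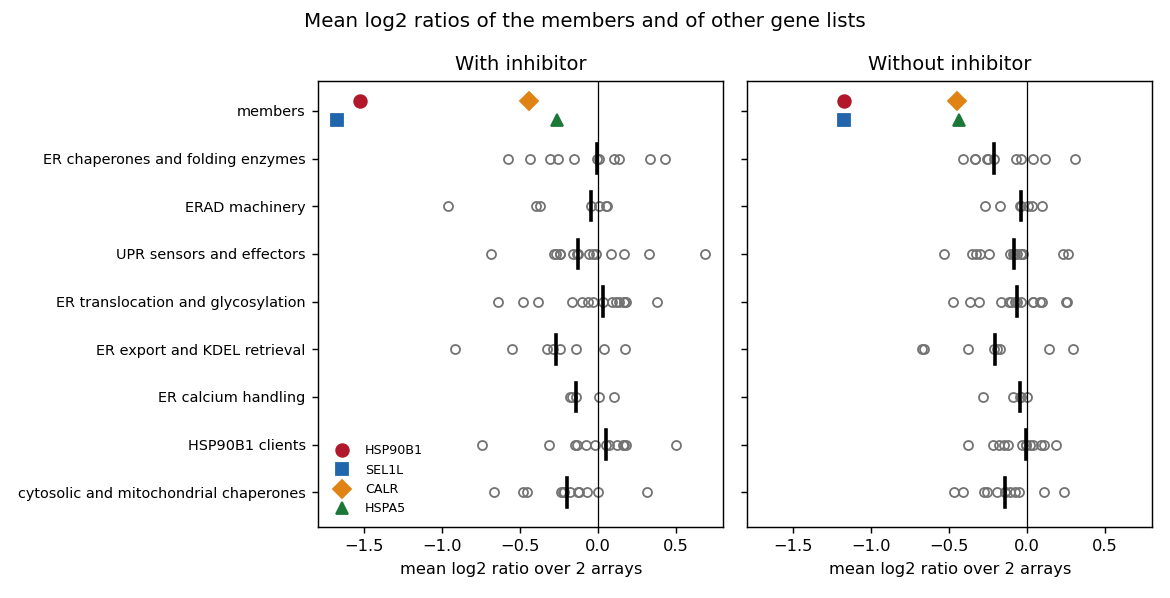
Mean log2 ratio over the 2 arrays of a group (horizontal axis), with inhibitor on the left and without on the right, for the members (coloured symbols) and for the measured genes of 8 other lists (open circles, median as a bar). HSP90B1 and SEL1L lie to the left of every circle in both panels, while CALR and HSPA5 lie within the range of the circles. The members were chosen after these ratios had been seen to lie below 0. The lists shown as circles were also chosen with earlier results of these data known.

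The genes most like each member were found by the Euclidean distance between their log2 ratios on the 4 arrays, over 3589 genes. Among genes outside the members HSP90B1 was nearest to DHX15, a splicing helicase (distance 0.345), PARPBP, a regulator of recombination (0.482), and NMD3, an export adaptor of the large ribosomal subunit (0.567). SEL1L was nearest to NMD3 (0.323), CD2AP, an actin adaptor (0.341), and the kinase OXSR1 (0.393), and HSP90B1 and SEL1L were 0.538 apart, so SEL1L came before NMD3 in distance from HSP90B1. DHX15 had -1.99 at 3 days and -1.47 at 2 days with inhibitor, against -1.84 and -0.75 without. NMD3 had -1.96 and -1.65 with inhibitor, against -1.43 and -0.75 without. CALR lay in a crowded range, with the nuclear export receptor gene XPO1 at 0.0602, PPP2R5A at 0.0957 and the nuclease gene FEN1 at 0.0998. HSPA5 was nearest to EPHA2 (0.0687), COL7A1 (0.123) and SMARCA2 (0.134), and CALR and HSPA5 were 0.262 apart. Each pair across these, such as HSP90B1 and HSPA5 (2.13) or SEL1L and CALR (2.03), was farther apart than either pair within. For each member the nearest gene of all was not a member.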

How the data were processed

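Total RNA of OCI-Ly3 cells was hybridised on 4 two-colour arrays, 2 with and 2 without MLN120b in both channels. The values are the deposited log ratios, 1 per probe and array. The file states neither base nor direction. They were read as log2, induced (Cy5) over uninduced (Cy3), per the labels' dyes. Array medians of the deposited log2 ratios lie between -0.007 and 0, so they appear to have been centred. How the authors corrected background, normalized and filtered is given nowhere in the sources used here. No label names separate cultures, and the arrays of a group differ in time. A p-value covers only the spread among 4 arrays, with time included where day is not in the fit. The fit of the day effect and that with day as a block take day out of this spread.

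Probes took genes from the platform annotation, with symbols updated through RefSeq (GRCh38.p14): 10169 of 15246 had 1 gene, 4 several and 5073 none, and 10128 matched RefSeq. Probes with a value on all 4 arrays (6796) were averaged per gene (3589 genes). limma 3.58.1 (lmFit, eBayes, R 4.3.3) tested each group mean against 0, their difference (2 residual degrees of freedom, prior 4.98) and the day effect with the inhibitor group as a block (1 and 4.35), two-sided, with Benjamini-Hochberg adjustment over all genes and a threshold of 0.05. It was tested on simulated data. Members got no test, because these ratios chose them. Members, lists and motifs were chosen with earlier results of these data known. Named genes were the members, CHUK, the 3 genes nearest to each member, called list genes, the 4 lowest and 2 highest of each ER list by mean over the 4 arrays, and the 2 largest absolute means of other lists. Alternatives were other probe summaries, centring, scaling, single probes, a robust prior, an adjusted p under 0.10, day as a block and each array left out.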

Additional observations from a re-analysis of the deposited data

Results flagged for a closer look

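ATP2A3, a calcium pump gene of the ER list measured by 1 probe, was above 0 on both arrays with inhibitor (0.01 at 3 days and 0.19 at 2 days) and below 0 on both without (-0.29 and -0.28). It is given because the groups lay on opposite sides of 0. The difference of the means was 0.38, which limma did not call (adjusted p = 0.989), and the lowest value with inhibitor is close to 0. No member met this condition, since all 4 were below 0 on every array.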

How the results depend on the processing

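The members' 16 values (each gene's mean with inhibitor, mean without, and day difference in each) were computed 80 times under the alternatives, and 77 kept their sign. The other 3 reversed when arrays were scaled to equal spread: the day difference, 3 minus 2 days, became 0.154 for SEL1L with inhibitor, 0.154 for SEL1L without and 0.051 for HSP90B1 with inhibitor. With the same scaling that of CALR with inhibitor moved to -0.0583. The rescaling itself makes these changes, since ratios were wider at 3 days. It also changed the sign of the SEL1L difference with against without inhibitor on both days, which is not among the 16 values. Leaving out an array of a group was chosen after seeing the data for the member means, and gives the ratio of the other array. Calls with inhibitor, 164 of 3589 genes with 1 of 61 ER list genes, became 109 genes after median centring, 590 and 10 at an adjusted p under 0.10, 908 and 14 when paired by day (day as a block), and 794 and 14 as single probes, which count probes of 1 gene apart. Without each array in turn they ranged from 34 to 858 genes and from 0 to 10 ER list genes, both lowest without either array lacking inhibitor, which leaves the tested means as they were, and both highest without that of 3 h of inhibitor. Leaving out an array with inhibitor leaves 1 there, assumed to vary like the arrays without, and limma then used a single spread for every gene, so these counts, and those of the other comparisons from such fits, say nothing about stability. Calls without inhibitor, 0 in the fit given, became 191 genes with 3 ER list genes after scaling, 70 single probes, 6 at an adjusted p under 0.10 and 56 with day as a block, and ranged from 0 to 231 and from 0 to 4 without each array. The difference had 0 to 119 genes and 0 to 2 ER list genes without each array. The day effect had 3 after scaling and 5 as single probes, and cannot be tested with an array left out. Genes beyond 1.5-fold on both arrays numbered 116 with and 33 without inhibitor, 20 and 4 at 2-fold, and 298 and 97 as single probes. The robust prior changed no count by over 1.5 times. The number of arrays limits the precision.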

Other observations

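Markers of other cell types gave ratios on both sides of 0, and limma called none of them in any of the 4 fits. The 9 measured T-cell markers had medians of 0.34 at 3 days and 0.02 at 2 days with inhibitor, against 0.19 and 0.05 without. Among them CD5 averaged 0.26 with and 0.13 without inhibitor, and CD3D 0.24 and 0.20. The 5 measured myeloid markers had medians of 0.01 and 0.04 with inhibitor, against 0.11 and -0.01 without. CSF1R averaged 0.61 with and 0.04 without inhibitor, and ITGAM, which is also on the list of HSP90B1 clients, -0.31 and -0.22. Of the B-cell markers BLNK averaged -0.21 and -0.23, and CD74, measured by 11 probes, -0.16 and -0.29. Their part in the ratios of the ER genes was not tested.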
